A study of Homo sapiens with 6 samples.

Results

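The 6 human actin genes were followed in hiPSC-CMs. This is the name used for cardiomyocytes made in culture from human induced pluripotent stem cells. They are ACTA1, ACTA2, ACTC1, ACTG2, ACTB and ACTG1, each matched by its symbol in a table of 21134 genes, and all 6 were listed and passed the filter on low counts that left 14926 genes for testing. RNA sequencing covered 6 libraries in 3 groups of 2. The control cells were untreated, the alcohol cells had 100 mM alcohol for 24 h, and the co-treated cells had losartan at 1 μM as well as 100 mM alcohol over the same 24 h. The labels speak of co-treatment and the study's text also of pretreatment with losartan, so the order in which it was added is not certain. Losartan blocks the angiotensin II type 1 receptor, and the comparisons ask what alcohol changes and what changes when this receptor is blocked as well. The labels name H9 as the cell line of every library. H9 is an embryonic stem cell line, although the cells are called induced pluripotent, so all values come from 1 line. No group received losartan alone.

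Actin is the protein of thin filaments and of the cytoskeleton. Of these genes, 4 are muscle actins: ACTC1 encodes cardiac alpha-actin, ACTA1 skeletal alpha-actin, ACTA2 smooth muscle alpha-actin and ACTG2 smooth muscle gamma-actin. ACTB and ACTG1 encode the cytoplasmic beta- and gamma-actins that most cells make. Developing cardiomyocytes are known to express ACTA2 and ACTA1 beside ACTC1. Transcription of muscle actins is known to depend on serum response factor (SRF), which binds a short motif called the CArG box, and monomeric actin itself holds back the SRF coactivators of the myocardin-related family.

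The coding sequences of the 6 genes are closely alike, which bears on how well reads can be assigned to each. The first 60 coding bases of each are shown to let the reader see how they differ, from GENCODE release 29 transcripts, with capitals where a base differs from ACTC1 after alignment of the whole coding sequences.
ACTC1: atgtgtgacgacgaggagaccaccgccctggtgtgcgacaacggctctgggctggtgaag
ACTA1: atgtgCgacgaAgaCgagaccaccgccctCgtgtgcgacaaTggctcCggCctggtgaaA
ACTA2: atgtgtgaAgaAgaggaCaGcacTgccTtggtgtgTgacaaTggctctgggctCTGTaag
ACTG2: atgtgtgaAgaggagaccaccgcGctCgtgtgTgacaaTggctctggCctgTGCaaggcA
ACTB: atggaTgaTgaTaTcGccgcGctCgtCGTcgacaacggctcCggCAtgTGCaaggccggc
ACTG1: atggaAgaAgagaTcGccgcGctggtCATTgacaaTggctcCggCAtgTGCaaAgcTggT
Within these 60 bases, 8 bases of ACTA1 and 19 of ACTG1 were in capitals. Gaps in the alignment are neither marked nor counted. ACTG2, ACTB and ACTG1 lack some bases of the ACTC1 start, so their last bases shown align beyond the 60 of ACTC1. Over the whole coding region, which is 1134 bases in ACTC1, ACTA1 and ACTA2, 1131 in ACTG2 and 1128 in ACTB and ACTG1, identity between pairs ran from 81.7% for ACTA2 and ACTB to 91.2% for ACTB and ACTG1. Few stretches of 50 bases, a length chosen for this check, were shared. No 50-base stretch of the ACTA2, ACTC1 or ACTG2 transcript occurred in another of the 6 genes, and the share was 0.763% for ACTA1, 0.51% for ACTG1 and 1.19% for ACTB. ACTB was the least distinct against all other genes, since 10.9% of its stretches occurred elsewhere, most often in the pseudogene ACTBP2 with 5.39%.

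The genes lie on 6 chromosomes (GRCh38.p14). ACTA1 is at chr1:229431245-229434094, ACTC1 at chr15:34790230-34795549, ACTB at chr7:5527148-5530601 and ACTG1 at chr17:81509971-81512799, all on the minus strand. ACTG2 is at chr2:73893008-73919865 on the plus strand. ACTA2, at chr10:88935074-88991337 on the minus strand, overlaps ACTA2-AS1, STAMBPL1 and FAS on the opposite strand. The sources used here do not state whether the libraries kept strand, so reads of ACTA2 and of those genes may have been mixed.

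CArG boxes in the promoters are shown because the muscle actins are classic SRF targets. The box was searched as the consensus SRF motif, on both strands, in windows from 250 bases before to 50 bases after the start of each RefSeq transcript. Of all 35116 such windows, 454 or 1.29% held at least 1 box, and 11 or 0.0313% held more than 1. Windows were given for 5 of the actin genes, ACTB being the sixth. The boxes are in capitals with the bases around them, on the strand of the gene.
ACTC1, chr15:34795639-34795668: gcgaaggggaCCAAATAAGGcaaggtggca
ACTA1, chr1:229434172-229434201: tgcccaacacCCAAATATGGctcgagaagg
ACTG1, chr17:81512874-81512903: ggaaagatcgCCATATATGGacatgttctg
ACTG2, first box, chr2:73892888-73892917: gaaaaaaccaCCTTATATGGtaatattgct
ACTG2, second box, chr2:73892925-73892954: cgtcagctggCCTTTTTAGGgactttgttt
The box of ACTC1 stood 109 bases before the start site, that of ACTA1 97 bases, that of ACTG1 94 bases, and those of ACTG2 110 and 73 bases. For ACTC1 this was the start site at chr15:34795549, and its windows at 34794908 and 34794117 held no box. The windows of ACTA2 held no run that matched the letters searched, which says nothing about SRF at that gene.

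Depth was even. Expected counts, the read numbers that RSEM estimates per gene, summed to between 4898287 and 5051448 per library, so that a count of 0 allows up to 0.612 CPM, the count scaled to the library total. All 11 cardiomyocyte markers examined, among them TNNT2 and NKX2-5, were above 1 FPKM in every library. FPKM is the number of fragments scaled to transcript length and to the mapped fragments of the library, and it allows levels of different genes to be compared. Over all genes tested, the alcohol pair correlated with r = 0.975 (log2 CPM), beside 0.975 for the co-treated and 0.978 for the control pair. In its actin sum, however, alcohol replicate 2 was low and far from its partner. It had the lowest summed FPKM of the 6 actin genes, 1465, against 3265 in alcohol replicate 1, 4171 and 2948 in the controls and 2048 and 1893 in the co-treated libraries, which came nearest to it, and the lowest cardiomyocyte marker sum, 19520 against 22220 to 26440 FPKM elsewhere. MYL7 weighed most in that marker sum. Of the single markers, MYL7, MYL2, TNNI3 and TTN were lowest in this library, whereas MYH6, TNNI1 and NKX2-5 were highest in it. Because of its low actin sum, some results of the alcohol group are given below with and without this library. These are the fold changes of ACTA1, ACTA2 and ACTC1 against control and the differences in muscle actin share. Shares of single genes, ratios and levels of list genes are given with all libraries. The labels do not say whether the 2 libraries of a group came from separate cultures, so each p-value measures only the spread between these libraries, which may be technical.

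In control cells the actin genes covered about 3 orders of size. ACTC1 was the highest with 2201 ± 662 FPKM (SD, n = 2 here and below), followed by ACTA2 with 543.5 ± 51.8 and ACTA1 with 446.3 ± 217. Next came ACTB with 255.3 ± 21.8, ACTG1 with 110.7 ± 15.8 and ACTG2 with 2.315 ± 0.7 FPKM. ACTA2 and ACTA1 could not be put in order, since ACTA1 was the higher of the pair in control replicate 1 and the lower in control replicate 2. The other neighbours in this order did not overlap. Group means kept this order in the alcohol and the co-treated groups except for ACTA1, whose mean of 213.3 ± 194 FPKM after alcohol and 174.5 ± 33.6 after co-treatment lay below the ACTB means of 229.6 ± 50.7 and 188.2 ± 9.42. After alcohol that order differed between libraries, with ACTA1 above ACTB in replicate 1 and below even ACTG1 in replicate 2. After co-treatment it differed too, with ACTA1 below ACTB in replicate 1 and above it in replicate 2.

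**Figure D1:**
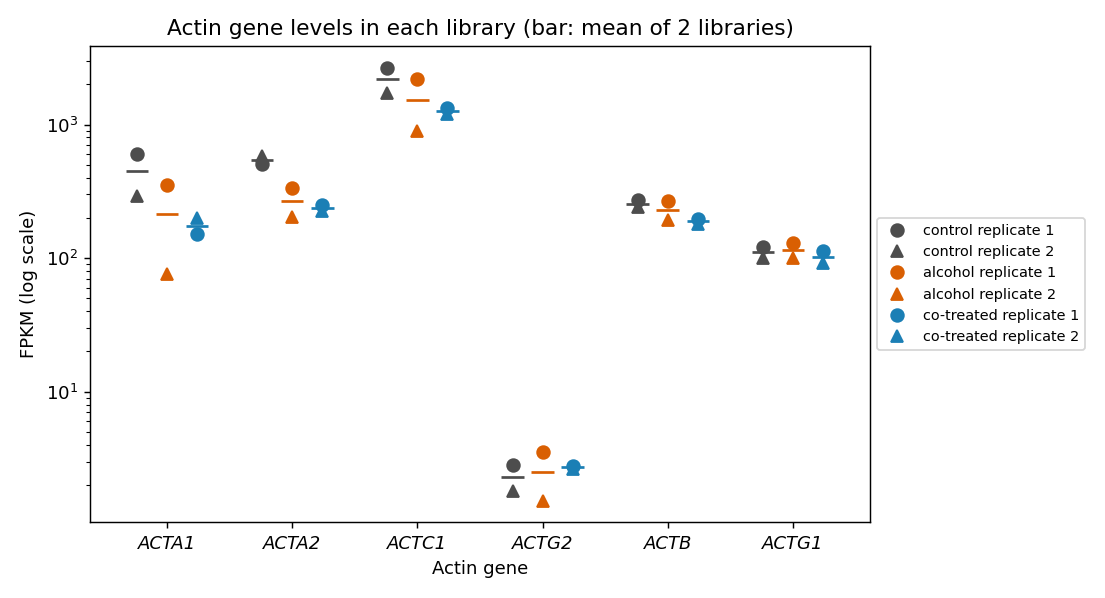
Level of each actin gene in FPKM (log axis) in the 6 libraries, coloured by group, with circles for replicate 1, triangles for replicate 2 and a bar at the mean of the 2 libraries. ACTA2 sits above 500 FPKM in both controls and below 340 FPKM in the other 4 libraries, whereas the ACTG1 points of the 3 groups overlap.

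ACTC1, the cardiac sarcomeric actin, measured 2668.86 and 1732.91 FPKM in the controls, 2177.94 and 889.40 after alcohol, and 1339.40 and 1193.97 after co-treatment. Both co-treated libraries were below both controls. The alcohol pair was spread so widely that 1 library lay between the controls and the other below every other library.

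ACTA1, the skeletal alpha-actin that fetal and stressed heart muscle is also known to make, measured 599.39 and 293.17 FPKM in the controls, 350.80 and 75.85 after alcohol, and 150.73 and 198.19 after co-treatment. It was the most variable of the 6, with the highest library 7.9-fold above the lowest. Alcohol replicate 1 lay between the controls, whereas alcohol replicate 2 and both co-treated libraries lay below them.

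ACTA2, the smooth muscle alpha-actin that marks smooth muscle, myofibroblasts and immature cardiomyocytes, measured 506.88 and 580.20 FPKM in the controls. It measured 336.76 and 203.10 after alcohol, and 247.69 and 223.96 after co-treatment. All 4 libraries with alcohol were below both controls, and the co-treated pair lay between the alcohol pair.

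ACTG2, the gamma-actin of visceral smooth muscle, was close to the limit of the depth. Its expected counts were 17.87 and 12 in the controls, 23 and 10 after alcohol and 18.10 and 17 after co-treatment, or 1.53 to 3.51 FPKM over all libraries. The groups overlapped, and counting error alone is large at such numbers.

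ACTB, the beta-actin of the cytoskeleton and a common reference gene, measured 270.74 and 239.91 FPKM in the controls, 265.50 and 193.78 after alcohol, and 194.85 and 181.53 after co-treatment. The co-treated libraries were below the controls, whereas the alcohol libraries overlapped both other groups. ACTG1, the gamma-actin of the cytoskeleton, measured 121.84 and 99.49 FPKM in the controls, 130.75 and 101.02 after alcohol, and 112.70 and 92.28 after co-treatment. Its groups overlapped throughout, and its highest library was 1.42-fold above its lowest, the narrowest range of the 6.

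In the comparison of alcohol with control, no actin gene passed the threshold of an adjusted p under 0.05 (edgeR quasi-likelihood test, Benjamini-Hochberg over all genes tested). Over all genes, 0.067% passed. In bulk RNA, fewer cells of a type and less RNA per cell cannot be told apart. ACTA2 was nearest to the threshold. It was 51.2% lower, a log2 fold change of -1.04 (SE 0.20, unadjusted p = 0.000155, adjusted p = 0.0797 from edgeR), and its p ranked 29th among the 14926 genes. It was also the only actin gene whose groups did not overlap, lower after alcohol in 2 of 2 libraries, where 21.8% of all genes were lower without overlap.

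ACTA1 was 52.9% lower on average with a log2 fold change of -1.08 (SE 0.49, unadjusted p = 0.0463, adjusted p = 0.44 from edgeR), and its groups overlapped. With ACTA2 it made 2 of 6 actin genes with an unadjusted p under 0.05, against 11.0% of all genes. The values of ACTC1 were -0.55 (SE 0.32, adjusted p = 0.581 from edgeR), of ACTB -0.19 (SE 0.16, adjusted p = 0.727), of ACTG1 0.03 (SE 0.16, adjusted p = 0.962) and of ACTG2 0.12 (SE 0.51, adjusted p = 0.96). The median log2 fold change of the 6 was -0.37, beside 0 over all genes tested.

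These values rested strongly on which alcohol library was used. Without alcohol replicate 2, the log2 fold change of ACTA1 was -0.35 and that of ACTC1 -0.017, so that ACTC1 was level with control. Without alcohol replicate 1, they were -2.63 and -1.38, and that of ACTA2 was -1.48. ACTA2 kept its direction in each of these fits, with -0.69 without alcohol replicate 2 and -1.1 without control replicate 1. With all libraries it passed with a replicate block (adjusted p = 0.0297 from edgeR) and with only genes of 10 or more counts in each library (adjusted p = 0.0488). It did not pass with DESeq2 (adjusted p = 0.118) or limma on FPKM (adjusted p = 0.309 and 0.325). In edgeR it also failed without a filter (adjusted p = 0.178), with other scaling (0.0848) and with only the 2 groups (0.226). Where a library was left out, the lone library of its group is assumed to vary as the other groups do.

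**Figure D2:**
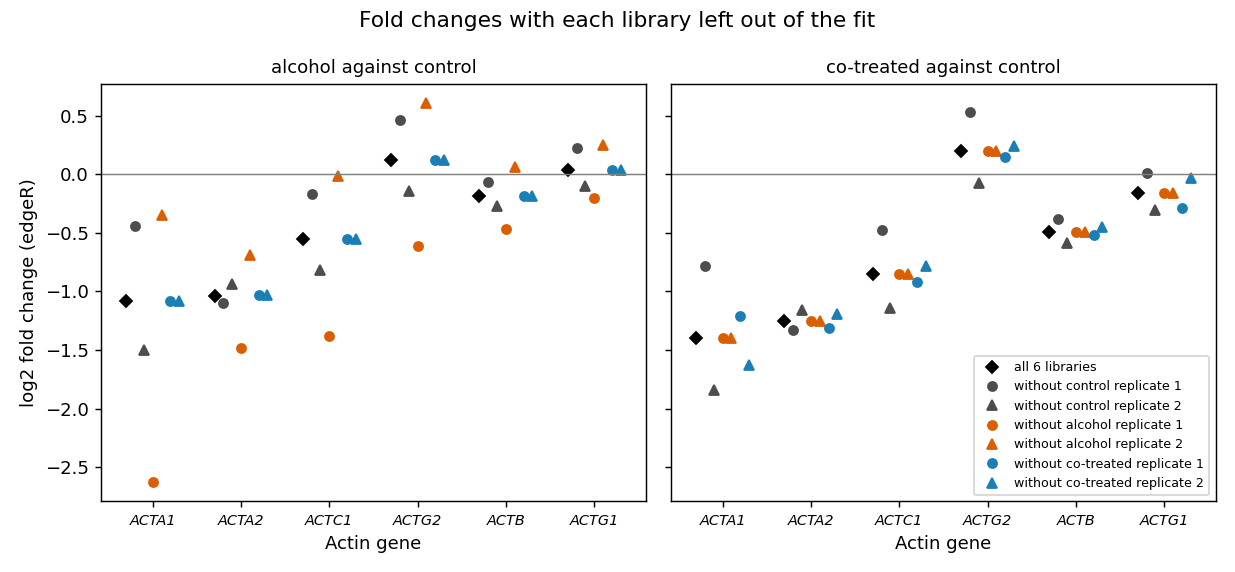
Log2 fold change (edgeR) of each actin gene in alcohol against control (left) and co-treated against control (right), with all 6 libraries (black diamonds) and with 1 library left out (colour and shape name the library). In the left panel ACTA1 ranges from -2.63 to -0.35 depending on the alcohol library, while the ACTA2 points of the right panel stay between -1.33 and -1.16.

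In the comparison of co-treated with control cells, which uses the same control libraries, ACTA2 passed the threshold. It was 57.9% lower with a log2 fold change of -1.25 (SE 0.20, adjusted p = 0.0203 from edgeR) and was lower in 2 of 2 libraries. It was the 1 of 6 actin genes to pass, where 0.362% of all genes did, and its p ranked 19th. Its log2 fold change stayed between -1.33 and -1.16 in all 15 other analyses, of which 10 kept it under the threshold. The call was lost without co-treated replicate 1 (adjusted p = 0.157 from edgeR) or co-treated replicate 2 (adjusted p = 0.349), with limma on FPKM (adjusted p = 0.172 and 0.191) and without a filter on low counts (adjusted p = 0.053 from edgeR).

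Of the other muscle actins, ACTA1 had a log2 fold change of -1.40 (SE 0.50, unadjusted p = 0.0143, adjusted p = 0.258 from edgeR). ACTC1 had -0.85 (SE 0.32, unadjusted p = 0.0207, adjusted p = 0.29 from edgeR). Both were below control in 2 of 2 libraries without overlap, and both passed when either alcohol library was left out, with an adjusted p of 0.0134 and 0.0307 from edgeR without alcohol replicate 1, and of 0.0165 and 0.0381 without alcohol replicate 2. Without control replicate 1 the log2 fold changes were -0.78 for ACTA1 and -0.48 for ACTC1 (adjusted p = 0.681 and 0.73 from edgeR), and without control replicate 2 they were -1.84 and -1.14 (adjusted p = 0.159 and 0.231). The alcohol libraries take no part in the difference itself and enter only the estimate of the spread. ACTG2 had 0.20 (SE 0.50, adjusted p = 0.914 from edgeR).

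ACTB had a log2 fold change of -0.49 (SE 0.16, unadjusted p = 0.00897, adjusted p = 0.215 from edgeR) with no overlap between the groups. ACTG1, its nearest relative in sequence, had -0.16 (SE 0.16, adjusted p = 0.752 from edgeR). In all, 4 of the 6 actin genes had an unadjusted p under 0.05, where 12.6% of all genes did, and the same 4, ACTA1, ACTA2, ACTC1 and ACTB, were lower without overlap, where 21.7% of all genes were. The median log2 fold change of the 6 was -0.67, beside 0 over all genes tested.

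In the comparison of co-treated cells with alcohol alone, 0 of the 6 actin genes passed the threshold of edgeR, 0 had an unadjusted p under 0.05, and in 0 were the co-treated libraries lower without overlap. The shares of all genes were 0.0134%, 5.55% and 16.2%. DESeq2 and limma called none of the 6 either. The lowest p belonged to ACTB, with a log2 fold change of -0.30 (SE 0.16, unadjusted p = 0.0805, adjusted p = 0.90 from edgeR). ACTA2 had -0.21 (SE 0.20), ACTC1 -0.30 (SE 0.32), ACTA1 -0.32 (SE 0.49), ACTG1 -0.19 (SE 0.16) and ACTG2 0.08 (SE 0.50). The direction of ACTA1 depended on the alcohol library, with -1.05 when replicate 2 was left out and 1.23 when replicate 1 was left out. With an SE of 0.49, a difference of the size measured for ACTA1 was not detectable here.

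**Figure D3:**
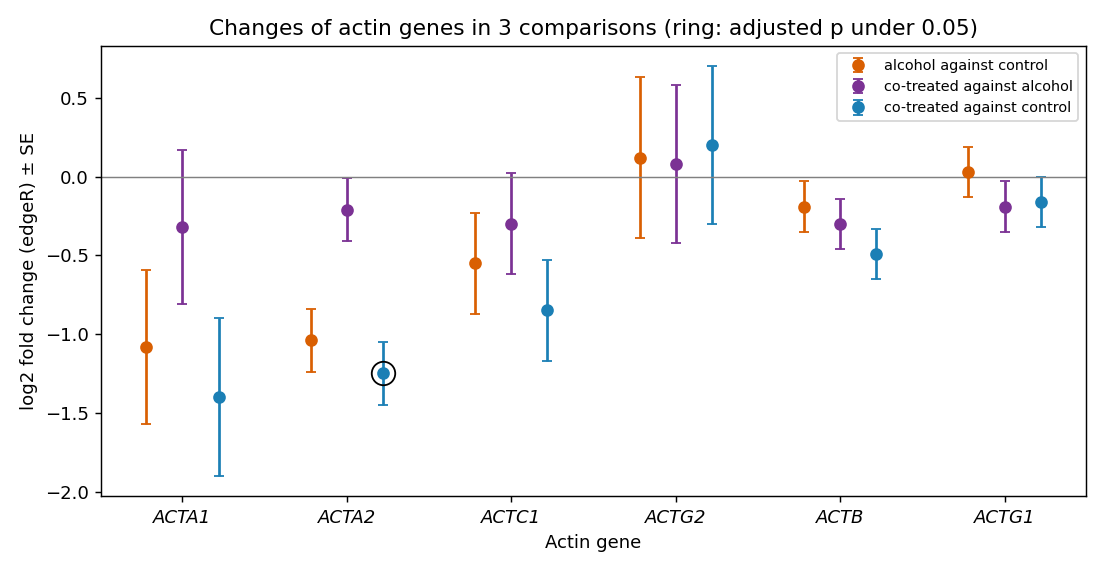
Log2 fold change with its standard error (edgeR) for the 6 actin genes in the 3 comparisons, with a ring where the adjusted p was under 0.05. The ring marks ACTA2 in co-treated against control at -1.25, and the values for co-treated against alcohol lie between -0.32 and 0.08.

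The make-up of actin mRNA was then expressed as each gene's share of the summed FPKM of the 6 genes. With 2 libraries against 2, an exact two-sided permutation test cannot give a p below 0.333, so that none of these differences can pass 0.05. The 4 muscle actins together held 90.59% and 88.49% in the controls, 87.86% and 79.87% after alcohol, and 84.98% and 85.53% after co-treatment. Both treated groups lay below the controls without overlap. The means were 89.54% ± 1.49, 83.87% ± 5.65 and 85.26% ± 0.388, a difference of -5.67 percentage points for alcohol against control and of -4.28 for co-treated against control (exact permutation p = 0.333 for both). With shares taken from expected counts, which are not scaled to transcript length, these differences were -3.5 points with overlapping groups (exact permutation p = 0.667) and -2.56 points (exact permutation p = 0.333). Co-treated against alcohol differed by 1.39 points (exact permutation p = 1.0), and by -2.61 when alcohol replicate 2 was left out. Without that library, alcohol against control differed by -1.67 points.

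ACTC1 made up most of the actin mRNA in every library, with 64.0% and 58.8% in the controls, 66.7% and 60.7% after alcohol and 65.4% and 63.1% after co-treatment. Its share overlapped between all groups. ACTA1 held 14.4% and 9.95% in the controls, 10.7% and 5.18% after alcohol and 7.36% and 10.5% after co-treatment, also with overlap. The ACTA2 share was 12.2% and 19.7% in the controls, 10.3% and 13.9% after alcohol, and 12.1% and 11.8% after co-treatment, so that only the co-treated pair lay below both controls.

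Among the cytoplasmic genes, ACTG1 held 2.92% and 3.38% in the controls, 4.0% and 6.9% after alcohol and 5.5% and 4.88% after co-treatment. Its share was higher in all 4 libraries with alcohol than in either control, while its FPKM overlapped. ACTB held 6.49% and 8.14% in the controls, 8.13% and 13.2% after alcohol and 9.51% and 9.59% after co-treatment. The ACTB level relative to ACTG1 was 2.222 and 2.411 in the controls, 2.031 and 1.918 after alcohol, and 1.729 and 1.967 after co-treatment, lower in all 4 libraries with alcohol (exact permutation p = 0.333 against control for each treated group). The sum of both cytoplasmic actins lay between 273.8 and 396.2 FPKM in all libraries.

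The skeletal to cardiac ratio, ACTA1 over ACTC1, was 0.2246 and 0.1692 in the controls, 0.1611 and 0.08528 after alcohol, and 0.1125 and 0.166 after co-treatment. It was lower in each of the 4 libraries with alcohol than in either control (exact permutation p = 0.333 for both groups). The gap between the lower control and the highest treated library was small beside the spread within the groups.

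**Figure D4:**
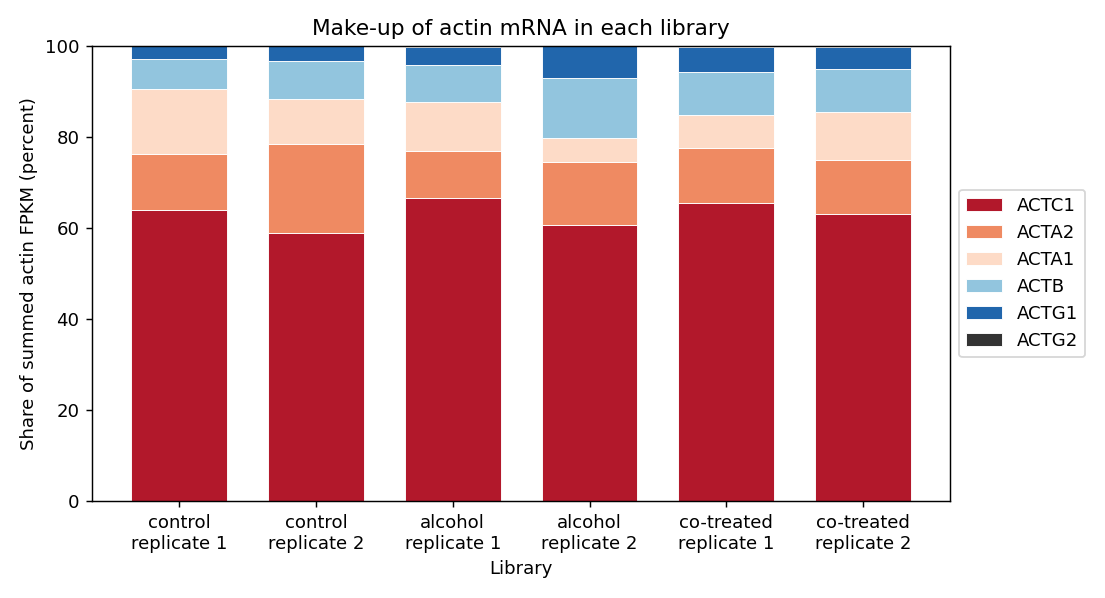
Share of the summed actin FPKM (percent, vertical axis) held by each actin gene in the 6 libraries, with muscle actins in reds and cytoplasmic actins in blues; the ACTG2 share is too small to see. ACTC1 holds 58.8% to 66.7% of each bar, and the blue part is tallest in alcohol replicate 2.

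Genes that overlap ACTA2 were read beside it, since mixed reads would touch its values. The choice of ACTA2-AS1 was made after its values were seen. ACTA2-AS1, an antisense RNA gene, shares 516 exon bases with ACTA2, or 16.2% of its own exon bases (GENCODE release 29). Its level was 254.30 and 211.55 FPKM in the controls, 178.77 and 93.94 after alcohol, and 120.99 and 111.05 after co-treatment. Like ACTA2, it was lower in all 4 libraries with alcohol than in either control, and its counts were 53.0% to 77.2% of those of ACTA2. The share of all genes that were lower in all 4 was not computed.

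ACTA2-AS1 did not pass the threshold, with a log2 fold change of -0.80 (SE 0.23, adjusted p = 0.206 from edgeR) in alcohol and of -1.05 (SE 0.23, adjusted p = 0.0787) in co-treated against control. When its counts were added to those of ACTA2, the log2 fold change of ACTA2 in co-treated against control was -1.17 (adjusted p = 0.0349 from edgeR). FAS and STAMBPL1 were low, at most 1.15 and 5.85 FPKM, and their counts were at most 4.27% of those of ACTA2. Reads of ACTA2 and ACTA2-AS1 in the shared bases cannot be told apart without strand.

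Actin-like POTE genes carry actin sequence from a retroposed copy and can share reads with ACTB. POTEF had 146.96 to 222.09 expected counts per library, against 1683.21 to 2522.97 for ACTB, and POTEE had 0 to 17.68. POTEJ reached 4.17 counts and ACTBL2 2 counts. POTEF was lowest in control replicate 2 and highest in co-treated replicate 2, and with these genes in the total, the muscle actin shares kept their direction in all 3 comparisons.

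Levels of smooth muscle markers were read beside ACTA2. All 6 markers listed were above 1 FPKM in every library, and their sum was 1135 to 1448 FPKM in the controls, 538.4 to 1143 after alcohol and 767.9 to 834.0 after co-treatment, with none at 0. TAGLN, which encodes transgelin, measured 997.94 and 825.53 FPKM in the controls, 688.82 and 340.02 after alcohol and 430.68 and 531.97 after co-treatment. CNN1 measured 416.88 and 279.07 FPKM in the controls, 421.72 and 177.47 after alcohol and 310.7 and 275.8 after co-treatment, with overlap between the groups. SYNPO2 had a positive log2 fold change, 0.20 in alcohol and 0.27 in co-treated against control. MYH11, the smooth muscle myosin heavy chain that defines mature smooth muscle, was 1.71 to 4.77 FPKM. In co-treated against control 5 of the 6 had a negative log2 fold change, with a median of -0.46 beside 0 over all genes, and 0 passed the threshold of edgeR while 2 had an unadjusted p under 0.05, where 12.6% of all genes did. Their part in the ACTA2 result was not tested.

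Fibroblast markers, some of which myofibroblasts also express, differed among themselves. Their sum, most of it from COL1A1, COL1A2 and COL3A1, was 422.3 to 467.3 FPKM in the controls, 482.4 to 516.5 after alcohol and 468.3 to 518.4 after co-treatment, above both controls in all 4 libraries with alcohol. Of the 10, 7 were above 1 FPKM in every library, and TCF21 and FAP stayed under 1 FPKM in all. Of the 8 tested, 3 had a negative log2 fold change in alcohol against control, POSTN with -0.37 (adjusted p = 0.353 from edgeR), LUM with -0.20 and THY1 with -0.52. The part of these cells in the ACTA2 result was not tested. Of the skeletal muscle list, 3 of 10 genes were not listed, and CKM, which heart muscle also expresses, made up nearly all of the sum of 279.1 to 339.1 FPKM. MYH1, MYH2 and MYF6, which skeletal fibres express, were at or near 0. TNNT3, the fast skeletal troponin T, measured 1.33 and 1.52 FPKM in the controls and 3.18 to 3.81 in the other 4 libraries, with a log2 fold change of 1.37 (SE 0.45, adjusted p = 0.224 from edgeR) in co-treated against control. The part of skeletal-type cells in the ACTA1 values was not tested.

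The genes that control, bind and fold actin were examined as 5 lists. In every list and comparison 0 genes passed the threshold of edgeR. Some other settings called list members. In alcohol against control and in co-treated against alcohol, this occurred only without alcohol replicate 1, which leaves a lone library in that group. In co-treated against control, the replicate block and DESeq2 each called 1 SRF list member. Settings that left out no single library called up to 1 member of the folding and monomer lists and up to 2 of the capping list. Over all genes, those settings called 1 to 158 in this comparison, beside 54 in the main fit. Some fits with a single library left out called list members there too. SRF, the transcription factor named above, measured 30.55 and 29.70 FPKM in the controls, 31.59 and 29.78 after alcohol and 28.48 and 22.21 after co-treatment, with a log2 fold change of -0.35 (SE 0.15, adjusted p = 0.338 from edgeR) in co-treated against control. Both co-treated libraries were below both controls. Of the 10 genes of SRF and its cofactors, not all of them coactivators, 2 had an unadjusted p under 0.05 in alcohol against control. The counts were 4 in co-treated against alcohol and 3 in co-treated against control. The shares of all genes were 11.0%, 5.55% and 12.6%.

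The SRF cofactor FHL2, a LIM protein of heart muscle, came closest to the threshold. Its level was 274.61 and 236.28 FPKM in the controls, 364.83 and 313.16 after alcohol and 415.82 and 441.31 after co-treatment. Its log2 fold change was 0.70 (SE 0.14, adjusted p = 0.0506 from edgeR) in co-treated against control. The 3 groups did not overlap, with the controls lowest and the co-treated libraries highest. FHL2 and the other genes named from these lists, here and below, were picked for small p. Separated groups were therefore likely among them, and the share of all genes with such an order was not computed.

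ABRA, also called STARS, is a muscle protein that binds actin and is known to promote SRF activity. It measured 4.32 and 2.40 FPKM in the controls, 2.12 and 1.80 after alcohol and 0.99 and 1.19 after co-treatment, the reverse order of FHL2 and again with no overlap. Its log2 fold change was -1.65 (SE 0.39, adjusted p = 0.0883 from edgeR) in co-treated against control, on counts of 13.75 to 61.89. MKL1, the older symbol of the coactivator MRTFA, had 0.28 (SE 0.15) in alcohol against control and -0.37 (SE 0.15, adjusted p = 0.862 from edgeR) in co-treated against alcohol.

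Genes that bind actin monomers or turn filaments over had a negative log2 fold change in 11 of 16 tested members in co-treated against control, with a median of -0.18 beside 0 over all genes and an unadjusted p under 0.05 for 5, beside 12.6% of all genes. PFN1, or profilin, which delivers actin monomers to growing filament ends, measured 232.42 and 270.49 FPKM in the controls, 196.35 and 176.46 after alcohol and 184.08 and 181.71 after co-treatment. All 4 libraries with alcohol were below the controls. Its log2 fold change was -0.47 (SE 0.13, adjusted p = 0.179 from edgeR) in alcohol and -0.51 (SE 0.13, adjusted p = 0.103) in co-treated against control. CFL1, the filament-severing cofilin, had -0.40 and -0.43, and TMSB4X, the monomer-binding thymosin beta-4, had -0.42 and -0.53 in these comparisons. CFL2, the muscle cofilin, and WDR1, which works with cofilin, had -0.43 and -0.46 in co-treated against control.

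Of 22 genes that nucleate or elongate filaments, 15 had a negative log2 fold change in co-treated against control, with a median of -0.13, and 1 had an unadjusted p under 0.05, a smaller share than the 12.6% of all genes. LMOD2, the leiomodin that lengthens thin filaments in the heart, measured 160.63 and 137.70 FPKM in the controls, 194.61 and 206.31 after alcohol and 132.80 and 151.20 after co-treatment. It was above the controls in both alcohol libraries and back in the range of the controls in 1 co-treated library, the other lying below them. The log2 fold change was 0.39 in alcohol against control and -0.50 in co-treated against alcohol (adjusted p = 0.587 from edgeR). DIAPH3, a formin that elongates unbranched filaments, had -0.86 in alcohol against control at 2.11 to 4.14 FPKM.

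Of 18 genes that cap or crosslink filaments, 14 had a negative log2 fold change in co-treated against control, with a median of -0.27, and 5 had an unadjusted p under 0.05, beside 12.6% of all genes. ACTN1, a non-muscle alpha-actinin, measured 62.38 and 61.02 FPKM in the controls, 50.87 and 36.54 after alcohol and 44.13 and 39.38 after co-treatment. It was lower in all 4 libraries with alcohol, with log2 fold changes of -0.53 (adjusted p = 0.219 from edgeR) and -0.61 (adjusted p = 0.115) against control. ACTN3, the alpha-actinin of fast skeletal fibres, went the other way with 0.93 (SE 0.21, adjusted p = 0.0816 from edgeR) in co-treated against control, at 3.82 to 8.89 FPKM.

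Actin reaches its folded state in the chaperonin CCT with the help of prefoldin. Of 18 genes for folding and maturation, 15 had a negative log2 fold change in alcohol and 14 in co-treated against control, with medians of -0.19 and -0.14, and 3 and 2 had an unadjusted p under 0.05, which is near the 11.0% and 12.6% of all genes. CCT2, a chaperonin subunit, measured 75.12 and 91.35 FPKM in the controls, 59.95 and 50.64 after alcohol and 47.06 and 57.69 after co-treatment. The treated libraries were all below the controls, and the log2 fold change was -0.62 (adjusted p = 0.147 from edgeR) in alcohol and -0.71 (SE 0.15, adjusted p = 0.0668) in co-treated against control. CCT5, another subunit, was 50.47 and 50.32 FPKM in the controls and 36.18 to 42.94 in the other 4 libraries.

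**Figure D5:**
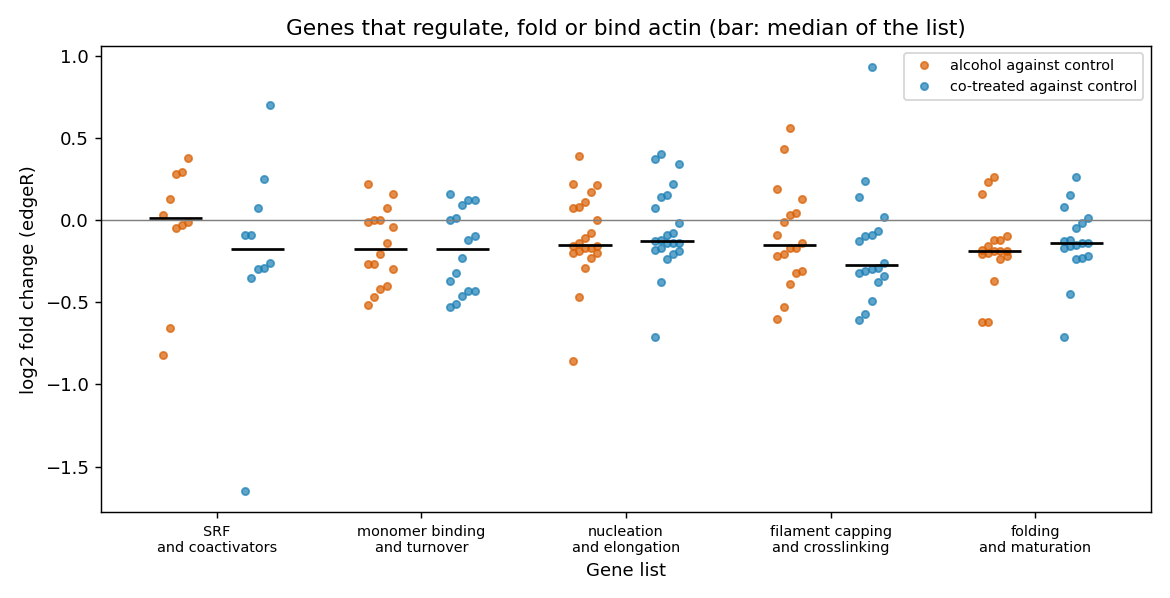
Log2 fold change (edgeR) of each tested gene in 5 lists of genes that regulate, bind or fold actin, in alcohol against control (orange) and co-treated against control (blue), with a bar at the median of each list. Medians lie between -0.27 and 0.01, none of the points passed the adjusted threshold, and ABRA at -1.65 and ACTN3 at 0.93 are the lowest and highest points.

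Finally, the actin genes were compared in their pattern over the 6 libraries, as a description of 6 points that share groups and depth. On the log2 CPM scale, ACTA1 and ACTC1 ran most closely together with r = 0.97, followed by ACTC1 and ACTB with 0.93. ACTA2 and ACTG2 were the least alike with 0.14. Among 7532 genes with at least 100 counts in every library, the patterns nearest to ACTA1 were those of CASQ1 (r = 0.994), which encodes a calsequestrin, and RND3 (0.993), a small GTPase. Those nearest to ACTA2 were CKAP4 (0.995) and CTTN (0.988), the latter being cortactin, which binds branched actin filaments. ACTC1 was most like PALM2-AKAP2 (0.996) and MXRA7 (0.993), ACTB most like NADK (0.989) and TNFRSF12A (0.986), ACTG1 most like HMOX2 (0.993) and DNAAF2 (0.99), and ACTG2 most like PDXP (0.986) and MED18 (0.98). Each of the 6 actin genes thus had such neighbours among so many genes, and 6 libraries are few to tell patterns apart. The r does not measure the size of a change. These neighbours spanned 0.3 to 0.97 in log2 CPM over the 6 libraries. The FPKM of ACTA1, ACTC1 and ACTA2 spanned 7.9-fold, 3.0-fold and 2.86-fold.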

How the data were processed

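Total RNA of 6 libraries was sequenced. The authors deposited, for each gene, the expected count of RSEM and FPKM, per library and in a series table, with hg38 as build; the submitters' processing notes name HISAT2 2.0.4, Bowtie2 2.2.5 and RSEM 1.2.12. The deposited FPKM divides by transcript length and library size, and 33.6% to 34.2% of expected counts above 0 were not whole numbers at 2 decimals, as RSEM divides ambiguous reads between genes. Strand and read length were not given in the sources used here.

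Expected counts were rounded, filtered with filterByExpr, scaled with TMM and tested with edgeR 4.0.16 (R 4.3.3, quasi-likelihood F test, two-sided, all 6 libraries in 1 fit, group as the only factor, Benjamini-Hochberg over 14926 genes, threshold 0.05). Standard errors were derived from the fold change and its F statistic. Alternatives were DESeq2 1.42.0 (genes with any count), limma 3.58.1 on log2(FPKM + 1) and log2(FPKM + 0.1) for genes of at least 1 FPKM in 2 libraries, other scaling, no filter, at least 10 counts in every library, a replicate block, the 2 groups alone and each library left out. Adding ACTA2-AS1 counts to ACTA2 was chosen after seeing the data. The fits were also run on simulated counts with 200 changed genes. Each simulated gene had the same spread beyond counting error, so that run does not cover genes as variable as ACTA1. Shares were compared by exact two-sided permutation.

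The actin genes and all lists were chosen with earlier results of these data known. Named were the 6 actins, the 2 genes most correlated with each among those with at least 100 counts in every library, and from each list the genes called or, failing that, the 3 with the smallest p per comparison, of which the text gives a part; the paralogs were always named. Markers are given as checks. Gene positions, promoter windows and gene names are from RefSeq (GRCh38.p14), and transcripts from GENCODE release 29. Floors cover counting error only.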

Additional observations from a re-analysis of the deposited data

How the results depend on the processing

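With 2 libraries per group, counts of calls moved with the setting. In alcohol against control 0 actin genes passed, but 1 with at least 10 counts in every library, 1 with a replicate block, and 0 to 3 when single libraries were left out. In co-treated against control 1 passed, but 0 with either limma fit or no filter, 3 with only those groups fitted, and 0 to 3 when single libraries were left out. In co-treated against alcohol 0 passed throughout. The 10, 2 and 54 genes called over all genes, in the order alcohol against control, co-treated against alcohol and co-treated against control, became 74, 5 and 116 with DESeq2, 2, 1 and 15 without a filter, 3, 4 and 158 with only the groups compared, and 1 to 220, 1 to 24 and 2 to 184 when single libraries were left out. At least 10 counts in every library gave 26 and 0 in the first 2 comparisons. With limma, alcohol against control had 1 call with either pseudocount and co-treated against control 1 and 3.

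Across all genes tested, replicate differences correlated at 0.11, -0.02 and 0.04, which showed no pairing by replicate number but cannot exclude it. Among the actin genes, the FPKM of ACTC1, ACTB, ACTG1 and ACTG2 was higher in replicate 1 than in replicate 2 in every group. That of ACTA1 and ACTA2 was not. The replicate block gave 48, 5 and 136 calls, and ACTA2 in alcohol against control then had an adjusted p of 0.0297 from edgeR.

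The muscle actin share ranged from -9.66 to -1.67 points in alcohol against control, -5.33 to -3.23 in co-treated against control and -2.61 to 5.39 in co-treated against alcohol when single libraries were left out, and was -3.5, -2.56 and 0.948 points from expected counts. In co-treated against control the log2 fold changes of ACTA1 and ACTC1 ranged from -1.84 to -0.78 and from -1.14 to -0.48. Log2 fold changes that crossed 0 did so when single libraries were left out. In co-treated against alcohol the ranges were -1.05 to 1.23 for ACTA1, -0.56 to 0.23 for ACTA2, -0.83 to 0.53 for ACTC1, -0.41 to 0.8 for ACTG2 and -0.4 to 0.041 for ACTG1. ACTA1 also gave 0.08 and 0.083 with limma and 0.058 with the block. In alcohol against control they were -0.61 to 0.61 for ACTG2, -0.47 to 0.057 for ACTB and -0.2 to 0.25 for ACTG1, and in co-treated against control -0.074 to 0.53 for ACTG2 and -0.31 to 0.012 for ACTG1. Other causes of these shifts were not tested.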
